A study of Mus musculus with 2 samples.

Results

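The CXC chemokines Cxcl1, Cxcl2, Cxcl3, Cxcl5, Cxcl10, Cxcl16 and Cxcl12, the related ligand Cx3cl1 and the CXCL12 receptors Cxcr4 and Ackr3 were followed in mouse mesenteric artery, with and without depolarization by high K+. These 10 genes were taken from the 55573 genes listed in the deposited read-count and FPKM tables by matching each Ensembl identifier to its symbol. Ackr3 is listed there under its former name Cxcr7. The names were chosen by reference to their reads in these same libraries, so the differences given here describe the members and are not tests.

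RNA-seq was available from 1 control library (5 mM K+) and 1 depolarized library (60 mM K+), with 60 min given as the treatment time of both. Each library pooled mesenteric arteries from 2 wild type C57BL/6 mice aged 10 weeks. Whether both libraries came from the same mice is not stated. Both came from perfused arterial beds cleaned of connective tissue, with tetrodotoxin, a blocker of neuronal sodium channels, in all solutions. The supplementary methods take the control from ligated branches that were collected before the rest of the bed received 60 mM K+, so the arterial segment and the time in solution cannot be told apart from the K+ concentration. Differences between single libraries cannot be set against a replicate error, so p-values are not used. The control library held 10480918 reads on genes and the depolarized library 11289598. Markers fixed for arterial cell types were present: all 6 smooth muscle and all 6 endothelial genes had at least 10 reads. Because whole tissue was sequenced, fewer cells of a type and less RNA per cell cannot be told apart.

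Chemokines are small secreted or membrane-bound proteins that guide leukocytes along concentration gradients through G protein-coupled receptors. CXC chemokines that carry a Glu-Leu-Arg (ELR) motif act on CXCR2 and attract neutrophils, whereas Cxcl10 acts on CXCR3, Cxcl16 on CXCR6 and Cx3cl1 on CX3CR1, receptors of T cells and monocytes. CXCL12 is made constitutively by many stromal and vascular cells. It signals through CXCR4 and is taken up by ACKR3, an atypical receptor that does not couple to G proteins in the classical way. In the vessel wall, many of these ligands are known products of activated endothelial cells, smooth muscle cells and resident macrophages.

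Promoter sequence was compared first, because the ELR chemokines Cxcl1, Cxcl2, Cxcl3 and Cxcl5 lie together in the genome and were all higher in the depolarized library. RefSeq windows on GRCm38.p6, from 250 bases before to 50 bases after a transcription start, matched 8 of the 10 members. Cxcl5 and Cxcl16 had no entry. The κB motif, the site class bound by NF-κB, was searched on both strands and was found in 4 of the 8 windows, those of Cxcl1, Cxcl2, Cxcl3 and Cxcl10, against 4.51% of 32851 windows of all genes. The stretches just upstream of these 4 starts are shown 5′ to 3′ on the strand of each gene, with the κB match in capitals. They are chr5:90891135-90891244 (+) for Cxcl1, chr5:90903789-90903898 (+) for Cxcl2, chr5:90785991-90786100 (+) for Cxcl3 and chr5:92348890-92349059 (-) for Cxcl10.
Cxcl1: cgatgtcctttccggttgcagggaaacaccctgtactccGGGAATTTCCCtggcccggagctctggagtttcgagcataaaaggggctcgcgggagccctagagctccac
Cxcl2: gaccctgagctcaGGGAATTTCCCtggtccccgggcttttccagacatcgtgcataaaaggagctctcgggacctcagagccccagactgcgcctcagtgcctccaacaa
Cxcl3: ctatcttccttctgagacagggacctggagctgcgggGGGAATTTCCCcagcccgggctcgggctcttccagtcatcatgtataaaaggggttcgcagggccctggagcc
Cxcl10: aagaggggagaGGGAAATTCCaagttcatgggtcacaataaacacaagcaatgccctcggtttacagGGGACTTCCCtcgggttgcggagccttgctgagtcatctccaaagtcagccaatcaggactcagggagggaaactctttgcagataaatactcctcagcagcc

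Cxcl1, Cxcl2 and Cxcl3 carried the same letters at this site, matched on both strands in overlapping positions. Counted back from the start, the match spanned bases -71 to -61 in Cxcl1, -97 to -87 in Cxcl2 and -73 to -63 in Cxcl3. Cxcl10 held 2 matches of different sequence, at -159 to -150 and at -103 to -94. It was also the only member window with the AP-1 motif TGANTCA, which was present in 7.81% of all windows. The cyclic AMP response element TGACGTCA was in 0 of 8 member windows and in 1.79% of all windows. Its shorter core TGACG, which overlaps the full element, was in the windows of Cxcl1 and Cxcl12 and in 20.8% of all windows. With a full element this rare, 0 of 8 short windows does not show that the members lack it. The paper used a database of CREB targets and predicted classic or nonclassic forms of the element for most of its most increased genes. TATAAA was in the windows of Cxcl3, Cx3cl1, Cxcr4 and Ackr3 and in 13.6% of all windows. These matches describe the letters of a window and not binding. The members were chosen on their reads, and Cxcl1, Cxcl2 and Cxcl3 are related genes with the same κB letters. Their matches are therefore not independent, and no enrichment is read from these counts.

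The 4 ELR chemokines among the members had more reads in the depolarized library. The ELR class is wider, and Ppbp and Cxcl15, which also belong to it, are given with the gene cluster. Cxcl1 lies at chr5:91320267-91322141 on mm9 (NCBIM37) and counted 522 reads at 5 mM K+ against 4212 at 60 mM K+. Its FPKM, the authors' read count scaled by gene length and library size, was 35.3 (95% counting interval 32.3 to 38.4) and 264 (256 to 272). Cxcl1 thereby moved from above 83.7% of the genes with reads to above 97.9% of them. With libraries scaled by TMM (edgeR's trimmed mean of log ratios), Cxcl1 was 8.66-fold higher with 60 mM K+, a log2(fold-change) of 3.11 (2.98 to 3.25). Intervals are exact, apart from large-sample intervals for the change of a ratio, and all cover counting error only. Folds were taken from TMM-scaled reads, whereas the authors' FPKM rests on total reads.

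Cxcl2 (chr5:91332897-91334935) went from 157 to 1155 reads, or from 11.03 FPKM (9.37 to 12.9) to 75.3 (71.1 to 79.8). It was 7.89-fold higher, a log2(fold-change) of 2.98 (2.74 to 3.23). The ratio of Cxcl1 to Cxcl2 reads, which does not depend on library scaling, was 3.32 at 5 mM K+ and 3.65 at 60 mM K+. This ratio changed by 0.13 on the log2 scale (-0.14 to 0.41), so a difference between the fold changes of the 2 genes was not detectable at this depth.

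Cxcl5 (chr5:91188325-91190651) had 0 control reads and 53 reads after depolarization. A floor of 3 reads stood at 0.167 FPKM in the control, where the counting interval of 0 reads reached 0.205 FPKM. The depolarized level was 2.73 FPKM (2.05 to 3.57). With TMM-scaled reads, Cxcl5 was 19.0-fold above that floor. Cxcl3 (chr5:91215129-91217112) also had 0 control reads and had 8 reads, 0.314 FPKM (0.136 to 0.619), in the depolarized library, 2.86-fold above the floor. These folds leave out the counting error of the depolarized library and are not bounds. With the counting error of both libraries, the lower end of the interval of log2(fold-change) was 3.90 for Cxcl5 and 0.87 for Cxcl3. The Cxcl3 value is uncertain beside that of Cxcl2, because their coding sequences were 91.4% identical and their transcripts shared an exact run of 110 bases. Cxcl1 and Cxcl2 were 80.5% identical, with a longest shared run of 23 bases, and Cxcl5 shared at most 12 bases with any of the other three.

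**Figure D1:**
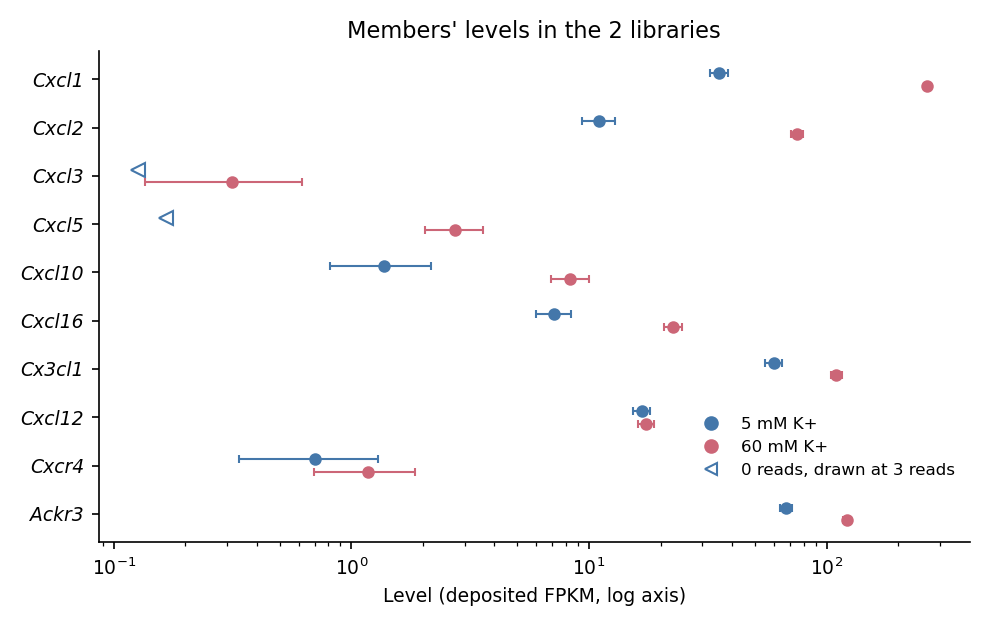
Deposited FPKM of the 10 members (log axis) in the 5 mM K+ library (blue) and the 60 mM K+ library (red), with bars for 95% Poisson counting intervals. Cxcl1 moved from 35.3 to 264 and Cxcl2 from 11.03 to 75.3, while Cxcl12 stood at 16.6 and 17.4; open triangles mark the 3-read floor of Cxcl3 and Cxcl5, which had 0 control reads.

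The 4 ELR members share a cluster of 146.6 kb on chromosome 5, all on the plus strand, with the platelet chemokine genes Pf4 and Ppbp and with Cxcl15. Ppbp and Cxcl15 encode ELR chemokines too, whereas Pf4 lacks the motif. These other chemokine genes of the cluster were not higher with 60 mM K+. Pf4 went from 21 to 8 reads, which gave -1.29 (-2.68 to -0.06) as its log2(fold-change), Ppbp from 2 to 0 reads, and Cxcl15 had 0 reads in both libraries. Mthfd2l, the neighbour after Cxcl2, had 175 and 188 reads (log2(fold-change) 0.20, -0.10 to 0.51), and Rassf6, the neighbour before Cxcl5, had 14 and 4 reads.

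**Figure D2:**
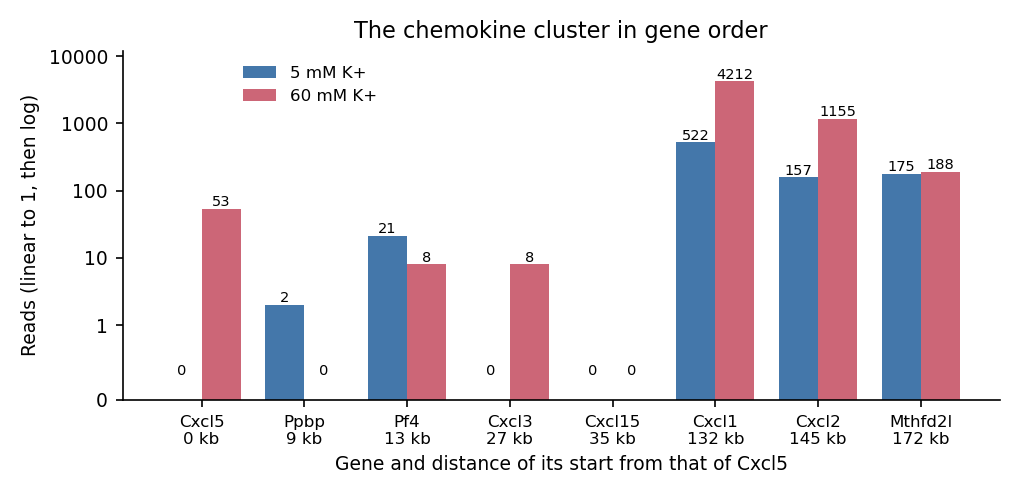
Reads per gene (vertical axis, linear to 1 and then logarithmic) in gene order, with the distance of each start from that of Cxcl5 under its name, for 5 mM K+ (blue) and 60 mM K+ (red). Cxcl5, Cxcl3, Cxcl1 and Cxcl2 were higher in 60 mM K+, while Pf4, between them, went from 21 to 8 reads.

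Cxcl10, an interferon-inducible ligand of CXCR3, lies at chr5:92775664-92777915 on the minus strand. It had 18 control reads and 118 reads after depolarization, or 1.37 FPKM (0.811 to 2.16) and 8.33 FPKM (6.89 to 9.97). It was 7.03-fold higher, a log2(fold-change) of 2.81 (2.09 to 3.62). Its neighbours Cxcl9 and Cxcl11 had 0 reads in both libraries, and the flanking genes Sdad1 and Nup54 had log2(fold-change) values of -0.07 and 0.09. Of the 1520 exon bases of Cxcl10, 133 are shared with Art3 on the opposite strand. Art3 went from 623 to 736 reads, and reads from the shared bases could not be assigned by strand.

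The transmembrane chemokines were also higher with 60 mM K+, by smaller folds than Cxcl1, Cxcl2 and Cxcl10. Cxcl16 (chr11:70267485-70273486) encodes a scavenger receptor and adhesion molecule whose shed form attracts CXCR6-bearing T cells. It had 140 and 478 reads, 7.12 FPKM (5.99 to 8.40) and 22.6 FPKM (20.6 to 24.7), and was 3.66-fold higher, a log2(fold-change) of 1.87 (1.60 to 2.16). Of its 3021 exon bases, 552 overlap Zmynd15, which had only 22 and 30 reads. Cx3cl1 (chr8:97295909-97306323), the endothelial adhesion ligand fractalkine, had 610 and 1207 reads, 59.8 FPKM (55.2 to 64.8) and 109.9 FPKM (104 to 116). It was 2.12-fold higher, a log2(fold-change) of 1.09 (0.94 to 1.23). The ratio of Cx3cl1 to Cxcl16 reads went from 4.36 to 2.53, a log2 change of -0.79 (-1.09 to -0.48). The ratio of Cxcl10 to Cxcl16 reads went the other way, from 0.129 to 0.247 (log2 change 0.94, 0.18 to 1.71).

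Cxcl12 (chr6:117118553-117131385) differed little between the libraries. It had 590 and 663 reads, 16.6 FPKM (15.3 to 18.0) and 17.4 FPKM (16.1 to 18.7), and was 1.21-fold higher with TMM scaling, a log2(fold-change) of 0.27 (0.11 to 0.43). With total reads as the scale the value was 0.06, and with Ppia and Hprt, the reference genes of the study's qPCR, it was -0.22, so no direction is given for Cxcl12. Relative to Cxcl12, Cxcl1 went from 0.885 to 6.35 reads per read, a log2 change of 2.84 (2.64 to 3.05).

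Of the CXCL12 receptors, Ackr3 was by far the more abundant transcript. Ackr3 (chr1:92100555-92113326) had 1227 and 2384 reads, 67.5 FPKM (63.8 to 71.4) and 122 FPKM (117 to 127), and was 2.08-fold higher, a log2(fold-change) of 1.06 (0.96 to 1.16). Cxcr4 (chr1:130484776-130488870) had 10 and 18 reads, 0.705 FPKM (0.338 to 1.30) and 1.18 FPKM (0.698 to 1.86), with a log2(fold-change) of 0.95 (-0.24 to 2.23). The Cxcr4 interval spans 0, so no difference was detectable at this depth. Per length, Ackr3 stood 95.8-fold above Cxcr4 in the control and 103-fold above it in the depolarized library. The ratio of their reads was 123 (66.5 to 257) and 132 (83.6 to 224). Its log2 change was 0.11 (-1.01 to 1.23), so a change of this ratio was not detectable. The ratio of Ackr3 to Cxcl12 reads went from 2.08 to 3.60 (log2 change 0.79, 0.60 to 0.98), while that of Cx3cl1 to Ackr3 was 0.497 and 0.506 (log2 change 0.03, -0.15 to 0.20).

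**Figure D3:**
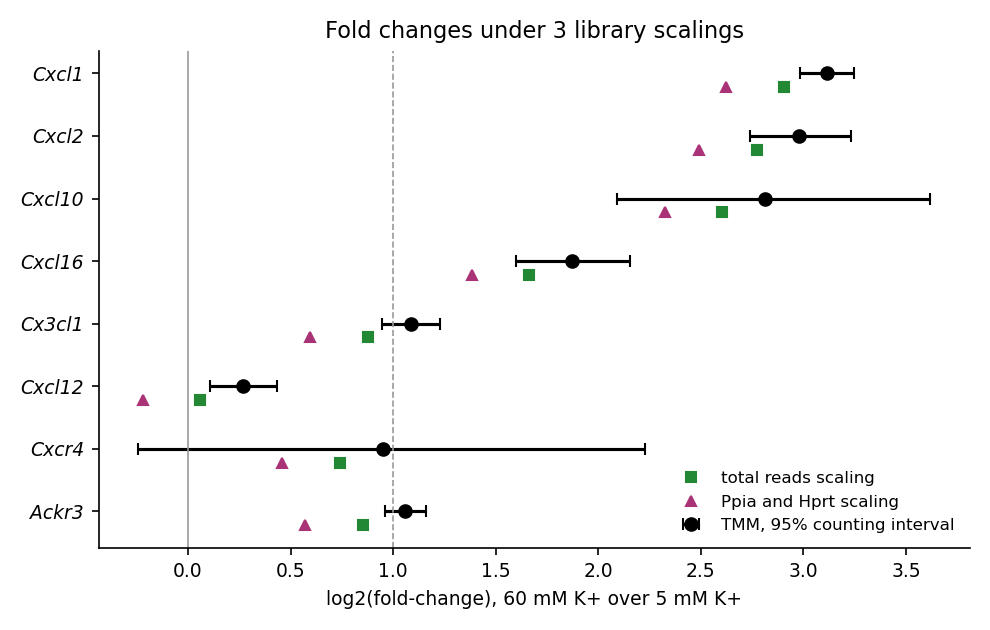
The log2(fold-change) of the 8 members with reads in both libraries, scaled by TMM (black, with 95% counting intervals), by total reads (green squares) and by Ppia and Hprt (purple triangles); lines mark 0 and 1. Cxcl1, Cxcl2, Cxcl10 and Cxcl16 stay above 1 under each of these scalings. Of the scalings drawn, Cx3cl1 and Ackr3 lie above 1 with TMM only, and Cxcl12 runs from 0.27 to -0.22.

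Among the 9 members whose reads in the 2 libraries summed to at least 10, 7 had a log2(fold-change) above 1 and 0 had one below -1. Over all 14829 genes with as many reads, 5.54% were above 1 and 5.86% were below -1. For 5 members, Cxcl1, Cxcl2, Cxcl5, Cxcl10 and Cxcl16, the lower end of the counting interval was also above 1, against 1.77% of all genes. Since the members were chosen on this contrast, nothing is read from these counts. The median of the 9 was 1.87, also with Cxcl5 set to its floor, beside -0.0047 over all genes. With total reads as the scale, Cx3cl1 (0.88) and Ackr3 (0.85) lay below 1, and with Ppia and Hprt they were at 0.60 and 0.57. Ppia and Hprt themselves had log2(fold-change) values of 0.51 and 0.47 with TMM. Total reads moved the median of all genes by -0.21 and Ppia and Hprt moved it by -0.49, so the split of genes above 1 and below -1 was 4.05% and 8.67% with total reads and 2.60% and 15.6% with Ppia and Hprt.

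**Figure D4:**
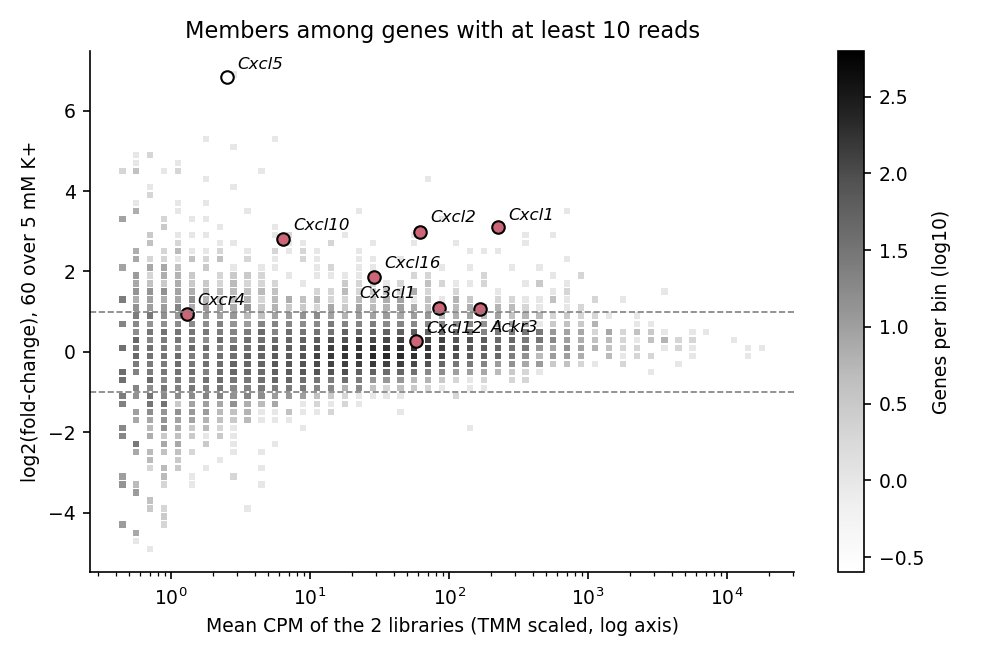
All genes whose reads in the 2 libraries summed to at least 10, as bins shaded by the number of genes, by mean CPM (reads per library size, log axis) and log2(fold-change), with 9 members as points and dashed lines at 1 and -1. Cxcl1 (3.11) and Cxcl2 (2.98) lie above most genes of like level; the open point is Cxcl5, whose 0 control reads were set to 0.5, so its height is not a bound.

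The order of FPKM levels, with the authors' gene lengths, differed between the libraries. In 5 mM K+ the highest FPKM values were those of Ackr3 and Cx3cl1, whose intervals overlap, followed by Cxcl1, Cxcl12, Cxcl2 and Cxcl16. Cxcl10 and Cxcr4 came next with overlapping intervals, and Cxcl3 and Cxcl5 were at 0. In 60 mM K+ Cxcl1 was highest, then Ackr3, Cx3cl1, Cxcl2, Cxcl16, Cxcl12, Cxcl10, Cxcl5, Cxcr4 and Cxcl3, and the intervals of neighbours did not overlap. Of the summed FPKM of the 8 ligands, which went from 131 to 501, the 4 ELR members made up 35.3% in the control and 68.4% in the depolarized library. Cxcl1 alone went from 26.9% to 52.8%, Cx3cl1 from 45.6% to 21.9% and Cxcl12 from 12.7% to 3.47%. By reads, the ELR share was 33.3% (31.3 to 35.4) of 2037 and 68.8% (67.7 to 69.8) of 7894. Orders between genes rest on the gene length used. The deposited FPKM of Cx3cl1 implies a length of 973 bases, whereas its longest annotated transcript has 3311. That of Cxcl1 implies 1412 bases, whereas each of its lengths taken from GENCODE vM1 is 953. Dividing the Cxcl1 reads by this shorter length raises its value. With longest transcripts Cxcl1 (52.3) stood above Ackr3 (38.2) and Cx3cl1 (17.6) in the control, an order that mixes gene models. With the same lengths Cxcl1 (391) was also highest at 60 mM K+, and Cxcl2 (55.9) stood above Cx3cl1 (32.3) there. Whether Cxcl1 moved to the first place thus depends on the length used, and counting intervals do not cover this. The shares rest on the gene length too. With longest transcripts, chosen after seeing the data, the 4 ELR members made up 63.9% and 86.9%, Cxcl1 55.3% and 75.4%, Cx3cl1 18.6% and 6.22% and Cxcl12 10.6% and 2.01%. With each of 3 other lengths, the shares of Cxcl1 were higher and those of Cx3cl1 and Cxcl12 lower at 60 mM K+.

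**Figure D5:**
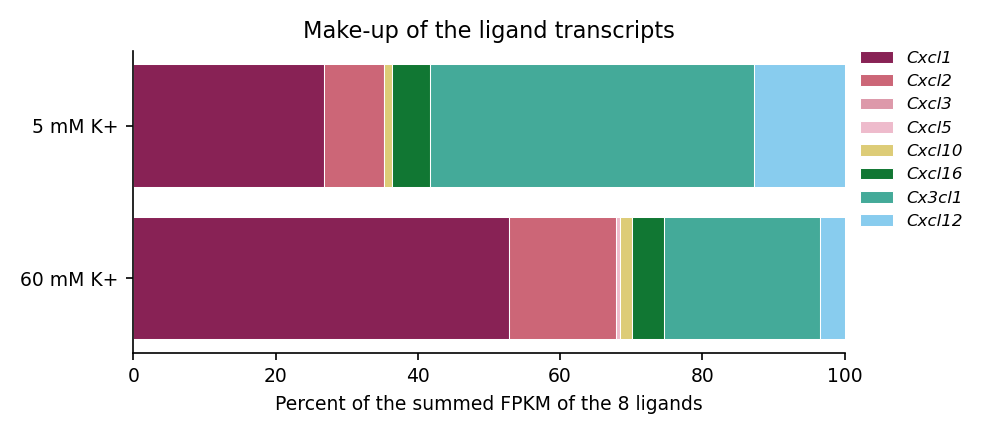
Each ligand's percent of the summed FPKM of the 8 ligands (horizontal axis) in the 5 mM K+ library (upper bar) and the 60 mM K+ library (lower bar). Cxcl1 widens from 26.9% to 52.8% while Cx3cl1 narrows from 45.6% to 21.9%, with the authors' gene lengths.

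The rest of the CXC family was sparse in both libraries. Of 8 other CXC ligands, 2 had at least 10 reads. These were Pf4, given with its cluster, and Cxcl14, a chemoattractant of monocytes and dendritic cells, with 7 and 18 reads (log2(fold-change) 1.46, 0.14 to 2.97). Of 7 other CXC and CX3C receptors, only Ackr1, a chemokine-binding receptor of venular endothelium and red blood cells, had at least 10 reads, 39 and 44 (log2(fold-change) 0.28, -0.38 to 0.94). The receptors named above for the ELR chemokines, Cxcl10, Cxcl16 and Cx3cl1 were at or near 0: Cxcr2 had 1 and 0 reads, Cxcr3 0 and 0, Cxcr6 3 and 0, and Cx3cr1 2 and 1.

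Of 5 proteases that process these chemokines, 4 had at least 10 reads and none was past 1 in either direction. Adam10 and Adam17, the sheddases of Cx3cl1 and Cxcl16, had log2(fold-change) values of -0.13 (-0.27 to 0.00) and -0.17 (-0.35 to 0.01). Mmp2 and Dpp4, which truncate CXCL12, were at -0.10 and -0.75, the latter from 9 and 5 reads. All 9 genes of receptor coupling (inhibitory G protein α-subunits, arrestins and receptor kinases) lay between -0.26 and 0.32, with a median of 0.12. Gnai3 (0.30), Grk2 (0.32), Grk6 (0.28), Arrb1 (0.12) and Arrb2 (0.08) lay above 0 and Gnai1 (-0.10), Grk3 (-0.15) and Grk5 (-0.26) below it with TMM scaling. Gnai2, the highest of the G protein genes, had 4269 and 4939 reads (log2(fold-change) 0.31).

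Markers of other cells were set beside these values. Of 6 neutrophil markers, S100a9, Ly6g, Mpo and Elane had 0 reads in both libraries, and the list summed to 2 control reads and 1 depolarized read. The 5 T cell markers summed to 6 and 1 reads, with Cd3g and Cd2 at 0 in both libraries. The 8 macrophage markers summed to 39.3 CPM in each library and 7 of them had at least 10 reads, with log2(fold-change) values from -0.77 to 0.39. The 6 smooth muscle markers summed to 35760 and 39501 CPM (-0.14 to 0.40). The 6 endothelial markers summed to 3067 and 4188 CPM, a higher sum beside the higher Cx3cl1 and Ackr3, but none of the 6 was above 1 and their median was 0.39. Cdh5 was at 0.83, Cldn5 at 0.67, Pecam1 at 0.50, Vwf at 0.28 and Tek at 0.25, and Kdr was lower at -1.10. Their part in the values of Cx3cl1 and Ackr3 was not tested. The 4 fibroblast markers summed to 3218 and 3001 CPM, the 4 adipocyte markers to 30.6 and 13.7 and the 5 red blood cell markers to 80.6 and 51.2. Of the 5 platelet markers, Itga2b had 7 and 45 reads (log2(fold-change) 2.79), whereas Pf4 had 21 and 8, Ppbp 2 and 0, Gp9 1 and 0 and Gp1bb 2 and 0. The 4 B cell markers summed to 5 and 8 reads and the 4 mesothelial markers to 4 reads in each library, with Msln, Upk3b and Lrrn4 at 0.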

How the data were processed

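Read counts and FPKM values were used, from 1 library each of control (5 mM K+) and depolarized (60 mM K+) mesenteric artery. The authors deposited read counts per gene without normalization and FPKM values made from the same reads. RNA was poly(A) selected with a kit not stated to mark strand. The paper's supplement gives mm9 as the reference genome, whereas the submitters' processing notes list an older mouse assembly beside it. Those notes name TopHat2 2.0.12, HTSeq 0.6.1 and edgeR 3.0.8. The annotation release is not given in the sources used here. Positions, exon overlaps and lengths taken from GENCODE vM1 need not be those used for counting. Sample groups followed the treatment label, since the protocol text of both samples names 60 mM K+. Deposited FPKM values were scaled by total reads, and the length they imply was within 2% of the mean transcript length of GENCODE vM1 for 43.63% of 17379 genes, against 16.8% for the longest transcript.

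TMM factors were computed from the unaltered counts with edgeR 4.0.16 in R 4.3.3. For fold changes a count of 0 was set to 0.5. Without replicates, edgeR's quasi-likelihood test could not be fitted, and the study's DEGSeq test was not run. Intervals on counts are 95% Clopper-Pearson and those on FPKM are Poisson, computed with scipy 1.17.1 in Python 3.11.15. Those on changes of a ratio are large-sample. Only the intervals of fold changes were run on simulated counts. These were drawn as Poisson counts, which the intervals assume, so the run checks the calculation only. Depth limited the precision: a floor of 3 reads was used for a count of 0. Positions are from GENCODE vM1 (mm9). Alternatives were total reads, upper quartile, median of ratios (DESeq2 1.42.0) and Ppia and Hprt scaling, a count of 0 set to 1, filters of 0 and 50 reads, FPKM with pseudocounts of 0.1 and 1, and other gene lengths. Identity was computed with Biopython 1.88 and plots were drawn with matplotlib 3.10.9.

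The 10 members and the gene lists were chosen with earlier results of these data known. All members were named, list genes could be named where both libraries together held at least 10 reads, and markers were named where at 0 or set beside a member. Receptors named with fewer reads were singled out after their values were seen, as were platelet markers, Ppbp, Cxcl9, Cxcl11 and Cxcl15 and the neighbours of the clusters. No gene was ranked by likeness of pattern, since 2 libraries give 1 difference per gene.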

Additional observations from a re-analysis of the deposited data

How the results depend on the processing

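With 1 library per condition, no value has a replicate error, and depth limited Cxcl3, Cxcl5 and Cxcr4 most. No paired analysis was possible because only 1 library was made per condition, even if both came from the same mice. Of the alternative values of single members, 47 stayed within the counting interval, 22 moved beyond it and 1 reversed, Cxcl12, at -0.22 with Ppia and Hprt scaling. Between 5 and 8 members were above 1 under every alternative run, against 7. Their median log2(fold-change) was 1.38 with Ppia and Hprt, 1.54 with FPKM + 1, and 2.34 both without a filter and with at least 50 reads; without a filter and with genes at 0 set to the floor it was 1.69. The share of the 4 ELR members in ligand FPKM was 40.4% in the control and 70.9% in the depolarized library without Cxcl12. With other gene lengths, chosen after seeing the data, it was 46.8% and 77.2% (mean transcript), 63.9% and 86.9% (longest transcript) and 68.2% and 88.8% (merged exons). Each of these lengths is 953 bases for Cxcl1, against 1412 implied by its deposited FPKM, which raises its part in these shares. The percent of all genes above 1 was 14.4 without a filter and 3.46 with at least 50 reads, where fewer or more low-count genes enter.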
